A study of Mus musculus with 7 samples.

Results

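The binding sites of the transcription factor CEBPB in unstimulated mouse dermal fibroblasts were set against the RNA level of the genes around them. Every gene placed at 1 locus on chromosomes 1 to 19, X and Y was included, which gave 22948 genes of the 23235 symbols in the RNA table. For each gene the CEBPB peaks were counted in the locus and within 10 kb on either side of it, a stretch called the window of the gene. The genes were then grouped by RNA level in FPKM (fragments for each kb of a transcript, corrected for library size) and by the length of the locus. The peak list held 7317 peaks.

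The cells were primary dermal fibroblasts of female FVB/N mice, kept for 8 days in DMEM/F12 medium with 10% fetal bovine serum. Of the 7 libraries of the study, 1 RNA library and 1 CEBPB chromatin immunoprecipitation (ChIP) library of untreated cells entered the comparison. The antibody was C-19 (sc-150) against CEBPB. Also used, as further readouts at the peaks, were the CpG methylation of untreated cells and the CEBPB peak list of cells given thapsigargin, a blocker of the calcium pump of the endoplasmic reticulum, for 3 h. Neither the RNA nor the ChIP library had a replicate, so no difference has a replicate check and no p-value is given. Intervals are exact 95% intervals (Clopper-Pearson for shares, Poisson for numbers of peaks) and cover counting error only, over genes that can share windows and peaks.

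CEBPB is a basic leucine zipper protein that binds DNA as a dimer with itself, with other C/EBP proteins or with relatives such as ATF4. Its preferred site is a palindrome of facing TTGC half-sites, and sites that join a C/EBP half-site to a CREB/ATF half-site are bound by mixed dimers. In connective tissue it is known for driving acute-phase and cytokine genes in inflammation and for the early steps of fat cell formation.

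The sequences below lie at the strongest peaks of the list and at the highest-scoring peaks of the 2 most peak-rich abundant genes, Rbms1 and Lhfpl2. They are 200 bases each, read 5′ to 3′ on the plus strand of the mm9 genome, and are shown because they let the sites be seen behind the counts that follow. Capitals mark every match to 6 motifs searched on both strands: TTGCGCAA, TTGCACAA, TTGCATCA, TGACGCAA, TGACGTCA and the AP-1 site TGAGTCA. The first 4 are C/EBP-type sites.
Vmp1, chr11:86417355-86417554: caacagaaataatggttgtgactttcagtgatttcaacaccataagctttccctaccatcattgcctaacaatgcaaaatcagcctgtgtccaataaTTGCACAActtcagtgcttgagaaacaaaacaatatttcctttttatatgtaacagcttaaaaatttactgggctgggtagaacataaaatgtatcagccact
Btbd19, chr4:116793062-116793261: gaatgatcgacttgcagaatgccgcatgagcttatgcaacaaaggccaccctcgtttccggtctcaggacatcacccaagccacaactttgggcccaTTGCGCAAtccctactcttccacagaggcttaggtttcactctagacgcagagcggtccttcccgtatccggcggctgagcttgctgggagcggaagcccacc
Emilin2, chr17:71649834-71650033: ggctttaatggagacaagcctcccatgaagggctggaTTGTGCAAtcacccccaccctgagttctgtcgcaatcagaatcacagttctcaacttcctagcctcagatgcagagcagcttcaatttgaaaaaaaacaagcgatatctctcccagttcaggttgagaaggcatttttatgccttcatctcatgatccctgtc
Nt5c2, chr19:46975952-46976151: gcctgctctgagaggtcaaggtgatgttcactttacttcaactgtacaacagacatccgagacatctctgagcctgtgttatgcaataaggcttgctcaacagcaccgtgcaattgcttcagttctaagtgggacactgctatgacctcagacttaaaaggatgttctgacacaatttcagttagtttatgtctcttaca
Htra1, chr7:138086825-138087024: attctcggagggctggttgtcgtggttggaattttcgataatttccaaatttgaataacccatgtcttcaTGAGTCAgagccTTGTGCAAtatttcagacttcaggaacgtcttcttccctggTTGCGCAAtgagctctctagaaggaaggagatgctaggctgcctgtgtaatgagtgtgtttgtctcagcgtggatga
Rbms1, chr2:60746333-60746532: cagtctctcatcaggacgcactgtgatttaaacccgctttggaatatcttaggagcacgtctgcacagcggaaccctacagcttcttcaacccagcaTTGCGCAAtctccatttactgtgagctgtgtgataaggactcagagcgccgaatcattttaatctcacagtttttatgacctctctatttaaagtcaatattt
Lhfpl2, chr13:94902576-94902775: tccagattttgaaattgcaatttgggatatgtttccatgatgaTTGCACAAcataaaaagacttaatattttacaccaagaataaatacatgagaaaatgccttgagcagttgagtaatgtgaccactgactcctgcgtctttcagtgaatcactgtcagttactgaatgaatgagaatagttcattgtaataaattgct

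The Vmp1 peak had the highest score of the list, 1333.94, and carried TTGCACAA. The peaks at Btbd19 (1162.88) and Rbms1 (311.25) carried the palindrome TTGCGCAA, and the peak at Emilin2 (1089.98) carried TTGTGCAA, the reverse complement of TTGCACAA. The Htra1 peak (925.46) held TTGCGCAA, TTGTGCAA and an AP-1 site within the stretch shown. The Nt5c2 peak (976.38) held no match to the letters searched. All 5 of the strongest peaks overlapped a peak of the thapsigargin-treated cells. The score is the authors' own value for a peak, and it is used here only to rank peaks within this list.

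C/EBP-type sites were common at the peaks as a whole. In the 300 bp around the peak centre, 30.7% of the 7317 peaks (29.6 to 31.7) held at least 1 of the 4 C/EBP-type 8-mers, against 1.96% of the 8527783 genome tiles of 300 bp without unknown bases. The commonest was TTGCACAA, found in 18.1% of peaks (17.3 to 19.1) and 0.930% of tiles. The palindrome TTGCGCAA was in 4.10% of peaks and 0.0244% of tiles. The AP-1 site TGAGTCA was in 15.9% of peaks and 4.66% of tiles. The share with a C/EBP-type 8-mer was 24.3% in the 1830 peaks with the lowest scores and 43.3% in the 1829 with the highest.

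CEBPB peaks were found more often at genes of FPKM 0.1 and above than at those of FPKM 0 to 0.1, called silent here. The name stands for the class only, as 2042 of its 8586 genes were above FPKM 0. Without microRNA, small nucleolar RNA and numbered gene models, 5767 of them remained. Of all genes, 3968 (17.3%) had at least 1 peak in the window. The share was 7.33% (6.78 to 7.90) of the 8586 genes at FPKM 0 to 0.1, of which 6544 stood at exactly 0. It was 18.0% (16.6 to 19.6) of 2550 genes at 0.1 to 1, 23.1% (21.6 to 24.5) of 3329 genes at 1 to 5, and 23.9% (22.7 to 25.1) of 4944 genes at 5 to 20. Among the 3539 genes over FPKM 20 it was 26.3% (24.9 to 27.8). The intervals of the classes 1 to 5 and 5 to 20 overlapped. Without the genes listed at FPKM 0 the share in the lowest class was 12.98%, still below the next class. Most genes in every class, the most abundant included, had no peak.

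The density of peaks was higher in each class than in the one below it. Over the merged windows of a class, it was 1.72 peaks per Mb (1.59 to 1.85) at FPKM 0 to 0.1, 3.07 at 0.1 to 1, 4.02 at 1 to 5, 4.93 at 5 to 20 and 7.19 (6.80 to 7.60) over 20. The part of the genome outside all windows had 2.09 peaks per Mb (2.02 to 2.17), above the value for the silent class. Of the 7317 peaks, 48.3% lay in a locus, 13.6% only in a 10 kb flank and 38.1% in no window.

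**Figure D1:**
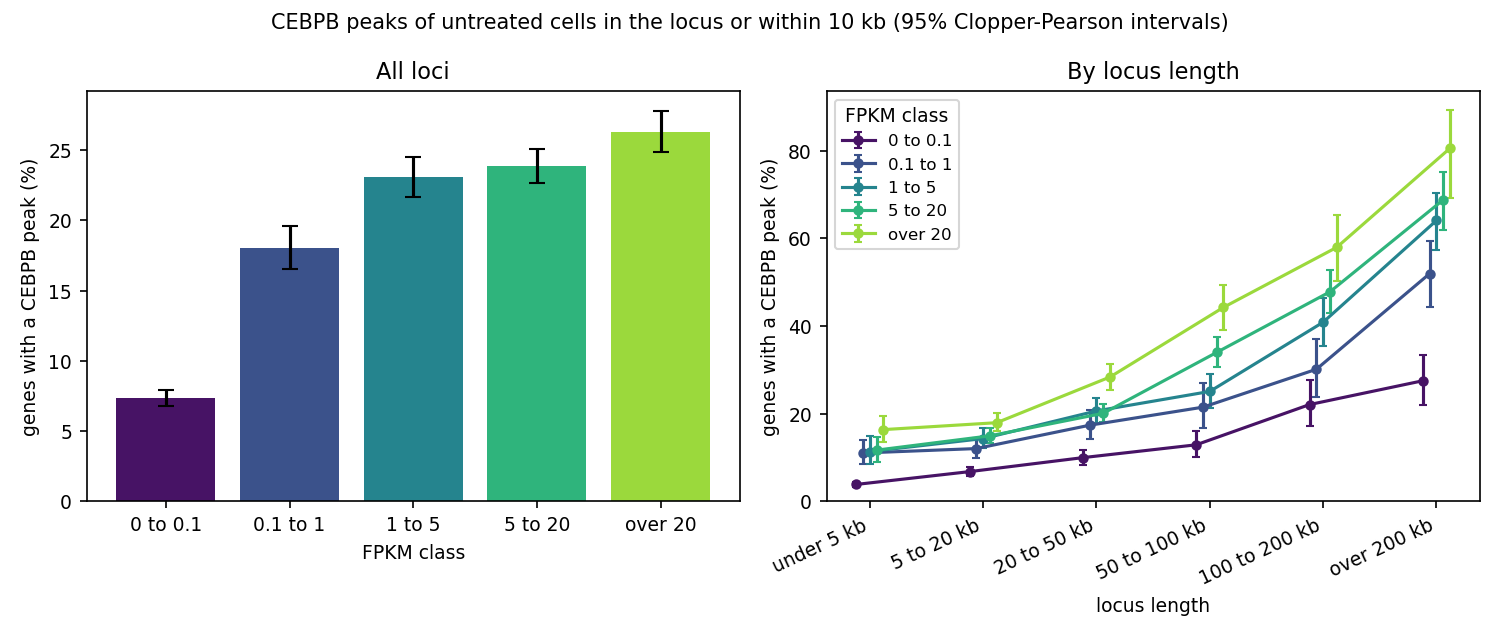
Share of genes with at least 1 CEBPB peak in the locus or within 10 kb, by FPKM class over all loci (left, bars) and by locus length within each class (right, points joined by class), with 95% Clopper-Pearson intervals. The share goes from 7.33% in the lowest class to 26.3% in the highest, and in each of the 6 length bins the class over FPKM 20 is highest and the class 0 to 0.1 lowest.

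A longer window has more room for a peak, so length was examined next. The share of genes with a peak was 7.03% under 5 kb, 12.3% at 5 to 20 kb, 18.8% at 20 to 50 kb, 27.8% at 50 to 100 kb, 40.1% at 100 to 200 kb and 54.0% over 200 kb. Density did not follow the same course: it was 3.34 peaks per Mb under 5 kb, between 4.14 and 4.43 from 5 to 200 kb, and 2.84 over 200 kb. The silent class had short loci, with a median of 6.43 kb against 16.3 kb over FPKM 20 and 25.3 kb at FPKM 1 to 5.

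Among genes of like length, the silent class was lowest and the class over FPKM 20 highest in each of the 6 bins. Under 5 kb, 3.81% (3.23 to 4.46) of silent genes and 16.3% (13.6 to 19.4) of genes over FPKM 20 had a peak. At 20 to 50 kb these shares were 9.93% and 28.4%. There the classes 1 to 5 and 5 to 20 did not keep their order, at 20.6% and 20.1%, within overlapping intervals. Over 200 kb they were 27.5% (22.1 to 33.5) of 251 silent genes, 52.0% at 0.1 to 1, 64.1% at 1 to 5, 68.8% at 5 to 20 and 80.6% (69.1 to 89.2) of 67 genes over 20. With every class weighted to the lengths of all genes, the share was 3.03 times as high over FPKM 20 as at 0 to 0.1, and 1.83, 2.17 and 2.35 times as high in the classes between.

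Across genes, Spearman's rho between the number of peaks and FPKM was 0.210 over the 22948 genes and 0.0952 without the genes listed at FPKM 0. With all genes it lay between 0.131 (5 to 20 kb) and 0.412 (over 200 kb, 919 genes) within the length bins. Genes share the 2 libraries and in part their peaks, so these values describe the genes and are not a test. Read the other way, genes with no peak had a median FPKM of 0.585 and those with 5 or more peaks a median of 11.6. Among loci of 100 kb or more the same medians were 1.18 for 1239 genes and 11.2 for 70 genes.

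Not every peak in the window of a silent gene was that gene's alone. Of the 629 silent genes with a peak, 50.6% had one that also lay in another gene's window, and 38.3% shared it with a gene at FPKM 1 or more. Counting only peaks held by no other window, the share was 3.83% (3.44 to 4.26) of silent genes, 11.7% at FPKM 0.1 to 1, 15.9% at 1 to 5, 16.4% (15.4 to 17.4) at 5 to 20 and 16.3% (15.1 to 17.6) over 20. On this count the class over 20 was not the highest, and the 3 classes from FPKM 1 up had overlapping intervals. The extreme case was 1 peak on chromosome 18 that lay in 24 windows. They were those of Diap1, of the entry Pcdha4-g and of the Pcdhg protocadherin cluster, whose variable exons were listed as genes of their own.

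In relative terms, the gap between silent genes and genes over FPKM 20 was widest within 1 kb of the gene start. Among the 21581 genes with a known strand, a peak centre lay within 1 kb of the start in 0.480% (0.336 to 0.664) of silent genes, 1.89% at FPKM 0.1 to 1, 3.74% at 1 to 5, 4.20% at 5 to 20 and 5.56% (4.82 to 6.37) over 20. From 1 to 10 kb upstream the shares were 1.71% and 5.30% in the lowest and highest class. From 1 to 10 kb after the start they were 1.35% and 6.38%, and in the 10 kb past the gene end 1.95% and 5.36%. The rest of the gene, from 1 kb after the start to the gene end, had a peak in the most genes, and its length differs from gene to gene. There the shares were 2.85% of silent genes, 10.0% at FPKM 0.1 to 1, 14.0% at 1 to 5, 13.3% at 5 to 20 and 13.7% over 20, so the class over 20 was not the highest. In the upstream stretch the class 0.1 to 1 (4.03%) stood above the class 1 to 5 (3.03%), within overlapping intervals.

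**Figure D2:**
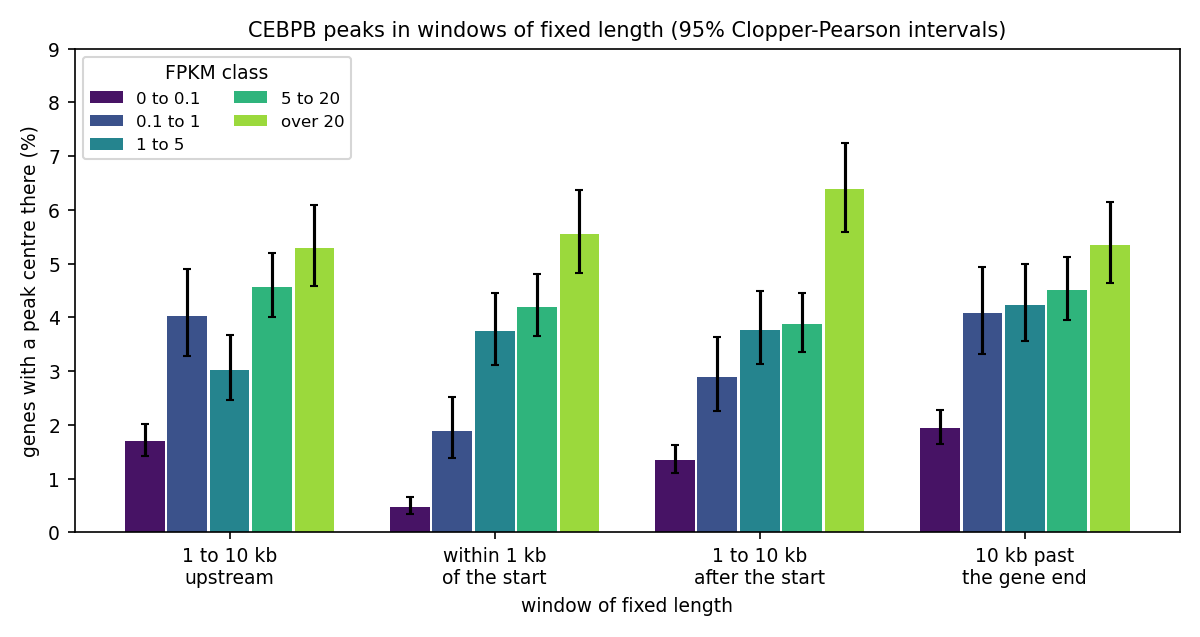
Share of genes with a CEBPB peak centre in each of 4 windows of fixed length, by FPKM class, with 95% Clopper-Pearson intervals. Bars within 1 kb of the start go from 0.480% to 5.56%, and in the 10 kb past the gene end from 1.95% to 5.36%.

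The peaks themselves differed little in score between the classes. Each peak was given to its nearest gene within 10 kb. The median score was 80.3 at silent genes, 77.8 at FPKM 0.1 to 1, 84.6 at 1 to 5, 84.7 at 5 to 20, 86.1 over 20 and 83.3 at peaks with no gene within 10 kb. The share with a C/EBP-type 8-mer was 31.4% (27.5 to 35.6) at silent genes, 27.6% (23.7 to 31.7) at FPKM 0.1 to 1, 31.2% at 1 to 5, 34.3% (31.8 to 36.8) at 5 to 20, 31.4% (28.7 to 34.1) over 20 and 28.8% (27.1 to 30.5) with no gene near.

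Peaks with little methylation were more frequent where the nearest gene was over FPKM 20. CpG methylation was averaged over the CpG cytosines within 300 bp at the peak centre, which 6771 peaks had. The mean over all CpG cytosines used was 66.4%, and the median peak stood at 33.5%. Peaks under 20% methylation made up 26.4% (22.6 to 30.6) of those at silent genes, 26.7% at FPKM 0.1 to 1, 27.9% at 1 to 5, 32.8% at 5 to 20 and 40.9% (38.0 to 43.9) of those over 20. Peaks within 1 kb of an annotated start were 8.05% of the peaks at silent genes and 16.6% of those over 20. Among peaks farther than 1 kb from any start the shares under 20% were 23.2% (19.4 to 27.3) at silent genes, 23.8% at FPKM 0.1 to 1, 20.7% at 1 to 5, 24.4% at 5 to 20 and 31.3% (28.2 to 34.4) over 20. The medians of these distal peaks were 34.7, 36.4, 38.5, 37.3 and 33.1% in the same order, so they did not fall steadily with expression.

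**Figure D3:**
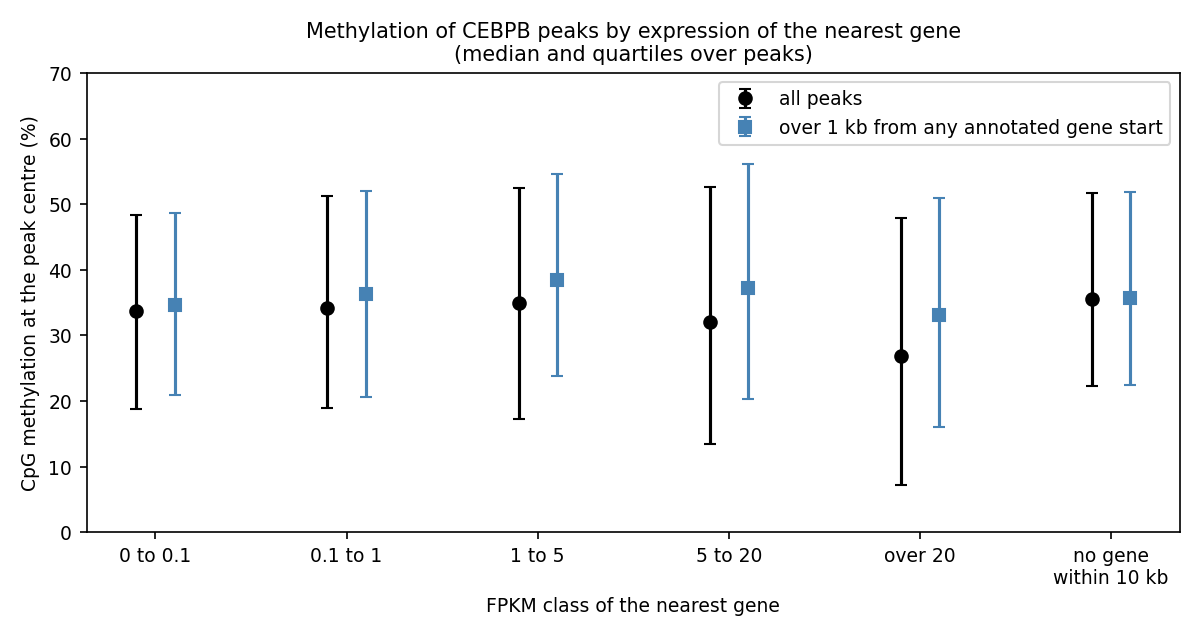
CpG methylation within 300 bp at the peak centre (percent), by FPKM class of the nearest gene, as the median with lower and upper quartile over peaks, for all peaks (black circles) and for peaks over 1 kb from any annotated gene start (blue squares). Medians of all peaks lie between 26.8% over FPKM 20 and 35.6% with no gene within 10 kb.

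Peaks listed also in treated cells were 20.9% of the untreated list (1531 peaks). They made up 17.4% (14.3 to 21.0) of peaks at silent genes and 23.3% (20.9 to 25.9) of peaks over FPKM 20, with overlapping intervals. By score the shares went from 9.40% in the 1830 lowest-scoring peaks to 42.6% in the 1829 highest-scoring ones. The 2 lists carry scores on different scales and no source used here gives the settings behind them, so absence from the treated list is not read as loss.

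The 20 genes with the most peaks lay in long loci, up to the 1478 kb of Magi2. Rbms3 (chr9:116481864-117539031), an RNA-binding protein, had 11 peaks, all in its locus of 1057 kb, at FPKM 18.2 (authors' bounds 17.7 to 18.7). Their scores ran from 50.26 to 567.69, and the strongest lay 821 kb from the start. Rad51l1, a protein of homologous recombination, also had 11, of which 1 lay 1.0 kb upstream of the start, at FPKM 1.22. Their scores ran from 59.16 to 172.17, and 1 of the 11 was in the treated list. These 2 genes shared the highest number, at RNA levels that differed widely.

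Dnm3, a dynamin of membrane fission, had 10 peaks at FPKM 3.55. Its locus encloses Dnm3os, the host transcript of the microRNAs miR-199a-2 and miR-214, which stood at FPKM 16.2 and had 0 peaks in its own window. Whether the FPKM used strand is not stated, so fragments of genes that overlap, as here, cannot be told apart. None of the 10 Dnm3 peaks was in the treated list, and 4 lay in another window too. Rbms1, a single-stranded nucleic acid binding protein and paralogue of Rbms3, had 9 peaks in 211 kb at FPKM 52.0 (50.6 to 53.4), 3 of them in the treated list. Lpp, a LIM-domain protein of focal adhesions, had 9 in 599 kb at FPKM 14.1. Lhfpl2, a tetraspan membrane protein, had 8 at FPKM 62.4, and 6 of its 8 peaks held a C/EBP-type 8-mer.

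The 6 genes with 7 peaks were Nfia, Foxp1, Arid5b, Maml3, Itpr1 and Vmp1. Nfia, a nuclear factor I protein, stood at FPKM 12.0, the forkhead protein Foxp1 at 10.1, the chromatin regulator Arid5b at 16.9 and the Notch coactivator Maml3 at 0.996. Itpr1, a calcium release channel of the endoplasmic reticulum, had 7 peaks at FPKM 5.61. Vmp1, a membrane protein of the endoplasmic reticulum needed for autophagy, had 7 at FPKM 61.8, 3 of them shared with other windows. The microRNA gene Mir21 lies inside the Vmp1 locus and had 2 peaks in its own window, but its FPKM of 0 has a low-data status, so it says nothing about the mature microRNA.

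Among the genes with 6 peaks were Syn3, Zfp608, Fbn1, Nsmce2, Magi2, Pde1a, Adamtsl3 and Slc16a10. Fbn1, fibrillin-1 of the elastic microfibrils, was the most abundant of the 20 at FPKM 197.8 (196.7 to 198.9), with all 6 peaks in its locus at scores from 57.29 to 249.46. Syn3, a synapsin of nerve terminals, stood at FPKM 0.257, and 3 of its 6 peaks lay in Timp3, a matrix-bound inhibitor of metalloproteinases whose gene sits inside the Syn3 locus and stood at FPKM 299.7. Magi2, a scaffold protein, had its 6 peaks spread over 1478 kb at FPKM 0.698, 0.401 peaks per 100 kb of window.

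**Figure D4:**
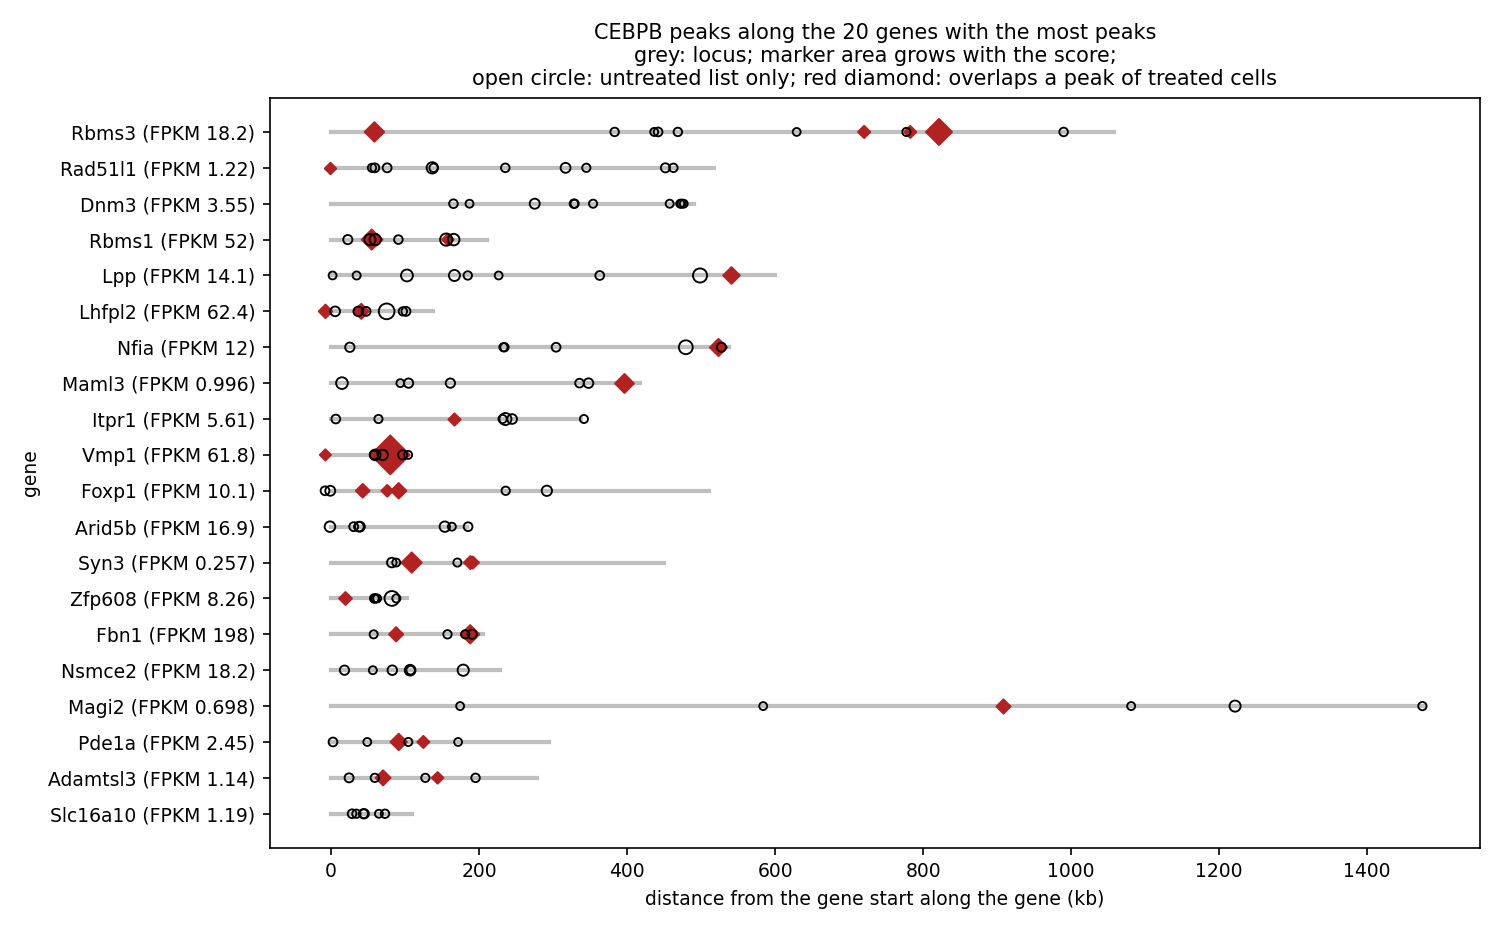
Positions of CEBPB peaks along the 20 genes with the most peaks, in kb from the gene start (grey line: locus), with marker area growing with the score; red diamonds overlap a peak of treated cells and open circles do not. Rbms3 and Rad51l1 have 11 peaks each, and the largest marker is the Vmp1 peak with a score of 1333.94.

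Among genes over FPKM 20, those with the most peaks after Rbms1, Lhfpl2, Vmp1 and Fbn1 were Rbfox2, a splicing regulator (6 peaks, FPKM 45.3), and Rin2, an activator of RAB5 (6, FPKM 23.0). Emilin2, a glycoprotein of elastic fibres, had 5 peaks at FPKM 27.5, of which 2 stood 10.3 and 10.9 kb from the start with scores of 1089.98 and 210.73. Ext1, an enzyme of heparan sulfate synthesis, had 5 at FPKM 55.8. Bre, a BRCA1-A complex member, and Fndc3b, a fibronectin type III domain protein, also had 5.

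A few silent genes had many peaks. Gpr98, a very large adhesion receptor of sensory cells, had 6 peaks at FPKM 0.00302, of which 3 lay between 524 and 529 kb from the start with scores of 323.19, 219.02 and 465.94. Galntl5, a testis gene, was listed at FPKM 0 and had 4 peaks in its 38.8 kb locus, with a C/EBP-type 8-mer in 2 of them. Slc14a2, Armc4 and Cdhr3 also had 4 peaks each.

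Among genes with 3 or more peaks, the number per length of window was highest at short genes, whose windows are the smallest. Nfil3, itself a basic leucine zipper repressor, had 5 peaks in a window with 14.8 peaks per 100 kb, at FPKM 24.2. They lay 4.2, 0.5, -0.3, -0.6 and -4.6 kb from the start, and the strongest scored 447.43. Cxcl5, a neutrophil chemokine, had 3 peaks at FPKM 34.3, and Hmox1, heme oxygenase 1, had 3 at FPKM 82.9 with one at the start (321.91). Neat1, a nuclear RNA of paraspeckles, had 3 at FPKM 56.6, and H6pd, a dehydrogenase of the endoplasmic reticulum, had 5 at FPKM 27.0. Fes and Il17ra, the receptor of IL-17, were also among the 10. The densest also included genes with little or no RNA: Olfr432 (FPKM 0) and Fpr1 (0.115), each with 3 peaks, none of them in the locus.

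Some of the most abundant genes had no listed peak nearby. Col1a1 (FPKM 6473) and Col1a2 (3957), the chains of type I collagen, had no peak in the window, and neither did Sparc (4489), Bgn (2991) and Lgals1 (2111). The nearest peak was 22.5 kb from Col1a1 and 186 kb from Sparc. Col3a1, type III collagen, had 1 peak 6.9 kb from the start at FPKM 3000 and was the most abundant gene with a peak. Eef1a1, Vim, Serpinh1 and Thbs1 followed, with 1 peak each. The longest genes over FPKM 20 without a peak were Pgcp (511 kb), Dock1 (503 kb), Gpc3, Slit2 and Epha3.

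The factor's own gene had no peak. Cebpb stood at FPKM 33.4 (32.2 to 34.6), and its nearest peak was 20.2 kb downstream, with 5 peaks within 100 kb. Cebpa (18.7) and Cebpd (25.7) had none either. Cebpg (11.4) had 1, in its locus, and Ddit3, which encodes CHOP, had 1 at FPKM 82.9 that was shared with other windows.

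The gene lists described next were chosen with results of these data known and overlap in part, so their counts are set beside the 17.3% of all genes and the 26.3% of genes over FPKM 20 as a description only. Neither of these shares is matched for locus length. Shares given below for loci near the median length of a list are not matched member by member, as loci within a list differ widely in length. Growth factor receptors and TGF-beta signalling genes had a peak in 20 of 27 cases (74.1%, 53.7 to 88.9), with Smad3, a TGF-beta effector, at 4 peaks and Ltbp1 and the oncostatin M receptor Osmr at 3. Their median locus was 69.0 kb. Among all loci of 50 to 100 kb, 34.0% of genes at FPKM 5 to 20 and 44.2% over 20 had a peak. Dermal mesenchyme transcription factors had one in 17 of 31, led by Foxp1 and Nfia with 7 and Tcf4, Runx1 and Ebf1 with 5. Clock, glucocorticoid and hormone response genes had one in 11 of 18, among them Rora with 4 and Fkbp5 with 3. The median locus was 46.6 kb for the transcription factors and 42.2 kb for the response genes. Among all loci of 20 to 50 kb, 20.1% of genes at FPKM 5 to 20 and 28.4% over 20 had a peak. The transcription factor loci, however, ran from 2.16 kb (Twist1) to 537 kb (Nfia). Foxp1, Nfia, Tcf4, Runx1 and Ebf1 all lay in loci over 200 kb. There, 68.8% of all genes at FPKM 5 to 20 and 80.6% over 20 had a peak.

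Matrix and adhesion lists had a peak at about as many members as not. Matrix and crosslinking genes other than collagens had one in 18 of 34, with Fbn1 at 6, Adamts2, a procollagen peptidase, at 4 and Timp3 at 3. Collagen genes had one in 8 of 18, with Col14a1 at 4 and Col4a2 at 3. All 18 were over FPKM 20, with a median locus of 109.75 kb. Of all genes over FPKM 20 with loci of 100 to 200 kb, 58.0% had one. The collagen loci ran from 15.6 kb (Col1a1) to 213 kb (Col14a1), so this share is not matched to each member. Over FPKM 20 it was 17.9% at 5 to 20 kb, 28.4% at 20 to 50 kb, 44.2% at 50 to 100 kb and 80.6% over 200 kb. Actin and adhesion genes had one in 14 of 27, led by Lpp with 9, the cytoskeletal scaffold Palld with 5 and the integrin chain Itgb5 with 4. The median locus was 34.7 kb for the matrix and crosslinking list and 31.1 kb for the actin and adhesion list. Of all genes over FPKM 20 with loci of 20 to 50 kb, 28.4% had one. Acta2, smooth muscle actin at FPKM 1124, had none, and its nearest peak was 14.8 kb upstream.

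Genes reported as C/EBP targets had a peak in 19 of 37 (51.4%, 34.4 to 68.1), with a median locus of 8.45 kb. Cxcl5 and Hmox1 had 3, and C3, Socs3, Trib1, Igf1 and Pparg 2 each. The median FPKM of this list was 14.4, and of all genes at FPKM 5 to 20 with loci of 5 to 20 kb, 14.9% had a peak. Housekeeping genes had one in 3 of 15 (Ppia, B2m, Eef1a1), at a median FPKM of 170.5 and a median locus of 5.88 kb. Of all genes over FPKM 20 with loci of 5 to 20 kb, 17.9% had one. The C/EBP family and its dimer partners had one in 6 of 16, with Nfil3 at 5 and Atf3, Atf4, Atf5, Cebpg and Ddit3 at 1. Their median locus was 4.95 kb, and of all genes over FPKM 20 with loci under 5 kb, 16.3% had one. The list of neuronal and other long genes had one in 12 of 20 (60.0%, 36.1 to 80.9), led by Magi2 with 6 and Auts2 with 5. Its median FPKM was 0.403 and its median locus 1280 kb. Of all genes at FPKM 0.1 to 1 with loci over 200 kb, 52.0% (44.4 to 59.5) had one.

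**Figure D5:**
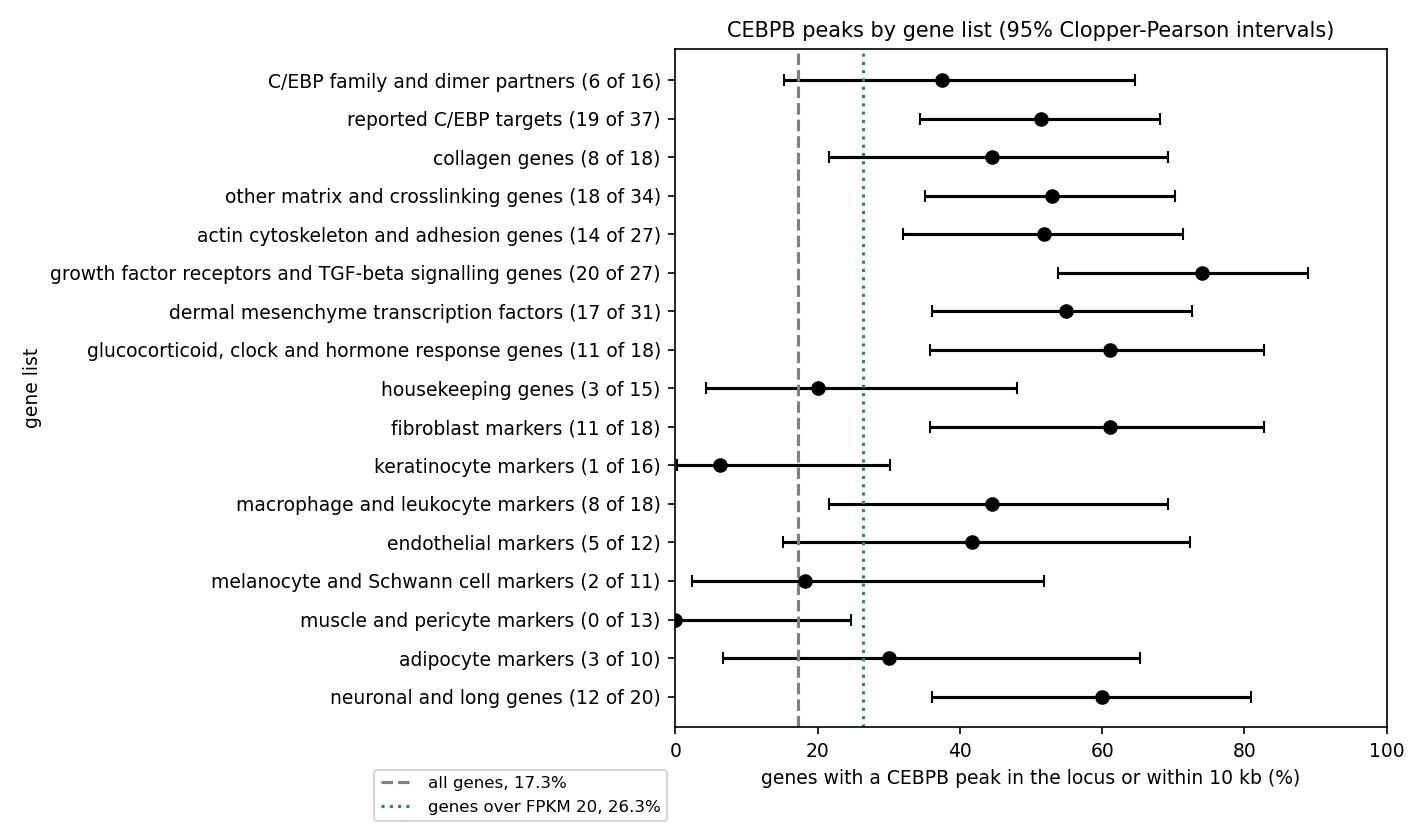
Share of each gene list with a CEBPB peak in the locus or within 10 kb, with 95% Clopper-Pearson intervals and the counts beside each name. Growth factor receptors and TGF-beta signalling genes stand highest at 74.1%, and muscle and pericyte markers, with 0 of 13, lowest. The lists differ in locus length and RNA level.

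Markers of other cells were checked because the culture was labelled as fibroblasts. Fibroblast markers stood at a median FPKM of 146.5 over 18 genes and had a peak at 11 of them. Their median locus was 37.0 kb, and of all genes over FPKM 20 with loci of 20 to 50 kb, 28.4% had one. Macrophage and leukocyte markers were not absent: 16 of 18 stood at FPKM 1 or more, with Lyz2 at 879.7, C1qa at 207.0 and Cd74 at 142.8, while the T cell gene Cd3e was at 0. Of these 18, 8 had a peak, Lyz1 and Ptprc with 2 and Lyz2, Csf1r, Cd68, Emr1, Itgam and Cd14 with 1. The median locus of this list was 5.55 kb. Of all genes over FPKM 20 with loci of 5 to 20 kb, 17.9% had a peak. Lyz1 and Lyz2 are close copies, so the split of RNA between them is uncertain. CEBPB is also known as a factor of macrophages, and the part of such cells in the peaks or the RNA was not tested. In bulk RNA, few cells with much RNA and many cells with little cannot be told apart.

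The remaining marker lists differed in locus length and RNA level, so their counts are not read as differences between cell types. Keratinocyte markers had one at 1 of 16, Trp63, with 3 peaks at FPKM 1.00, and no member was over FPKM 20. Muscle and pericyte markers had none at 13 genes, with Acta1 at FPKM 63.9, which allows a share of up to 24.7%. Melanocyte and Schwann cell markers had one at 2 of 11, with Mitf at 4 peaks, endothelial markers at 5 of 12 and adipocyte markers at 3 of 10. The median locus was 8.91 kb for keratinocyte, 17.2 kb for muscle and pericyte and 14.9 kb for melanocyte and Schwann cell markers. It was 53.1 kb for endothelial and 12.6 kb for adipocyte markers. Among all loci of 5 to 20 kb, 14.3% of genes at FPKM 1 to 5 and 14.9% at 5 to 20 had a peak. At 50 to 100 kb, 21.5% of genes at FPKM 0.1 to 1 had one.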

How the data were processed

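CEBPB ChIP, RNA and bisulfite libraries of untreated dermal fibroblasts were used, with 1 ChIP library, 1 RNA library and 2 bisulfite libraries. Reads were handled, per the submitters' processing notes, with CASAVA 1.8.2 and Bowtie (RNA), CASAVA 1.7, BWA and SAMtools (ChIP) and CASAVA 1.8 and Novoalign (bisulfite), on mm9. FPKM values with confidence bounds were deposited by the authors; the program behind them is not given in the sources used here. Each peak has a score deposited by the authors, at least 50.03; the names of the peaks carry MACS, and no source used here gives its version, control or threshold. The depth of the ChIP library was not analysed here. Methylation is a percent per CpG cytosine, deposited by the authors as 1 table without coverage and taken as pooled over both bisulfite libraries, so no interval is given for it; entries marked heterozygous were left out.

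Loci and peaks were placed on mm9, and strands and starts came from GENCODE vM1, matched by symbol and overlap for 94.0% of genes. Left out were 248 symbols at several loci and 39 on other sequence. A peak counted by any overlap of at least 1 bp with the window; window parts used the peak centre. Class edges were FPKM 0.1, 1, 5 and 20; a value on an edge went to the upper class, except 20. Counting was tested on simulated peaks of 1 bp in windows of the real lengths, placed so that none overlapped, at densities above those of the data. This test did not cover shared peaks, overlapping windows or wide peaks. Sequences came from the mm9 reference, not from reads. Named genes were the 20 with the most peaks, the 10 and 5 with the most in the highest and lowest class, the 10 densest with 3 or more peaks, up to 4 per list, those of the 5 highest scores, the 5 longest over FPKM 20 and the 5 most abundant without a peak, the 5 most abundant with one, and 8 fixed genes; ribosomal protein, microRNA and small nucleolar RNA genes and numbered models were left out except in lists. A few genes within this rule are not reported here. Acta2, Dnm3os, Mir21, Timp3 and individual list members with fewer peaks were added after their values were seen. The members and lists were chosen with earlier results of these data known. Python 3.11.15, numpy 2.4.6, pandas 2.3.3 and SciPy 1.17.1 were used.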

Additional observations from a re-analysis of the deposited data

How the results depend on the processing

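There were 16 alternatives, 13 planned and 3 chosen after the data were seen. Under all 16 the class over FPKM 20 had the highest share of genes with a peak and the highest density. The count of unshared peaks in the report, where it had not, is not among them. Neither is the count from 1 kb after the start to the gene end, where it also had not. No result reversed, 40 values stayed within the interval around the main value and 56 moved. For shares and densities this was the exact counting interval. For the ratio and for rho it was an approximate one that took genes as independent, for the ratio from counts not weighted by length. Stayed and moved are thus descriptions only. In the order share over FPKM 20, share at 0 to 0.1, peaks per Mb in the same classes, and length-weighted ratio, values were 16.95%, 3.529%, 7.719, 1.405 and 3.501 with the locus only; 20.49%, 4.239%, 8.042, 1.471 and 3.628 with 2 kb flanks; and 48.63%, 20.86%, 5.976, 2.479 and 2.143 with 50 kb flanks. They were 16.32%, 3.479%, 9.014, 1.866 and 4.497 within 10 kb of the gene start, 16.02%, 3.867%, 3.778, 0.83 and 3.503 with peaks above the median score, and 8.901%, 2.178%, 1.951, 0.4498 and 3.669 with the highest-scoring 25% of peaks, which hold fewer peaks by construction. With each peak given to its nearest gene they were 21.73%, 4.962%, 6.474, 1.297 and 3.392, and in the 5220 genes whose window overlaps no other they were 37.07%, 5.894%, 8.013, 1.148 and 4.48. The share at 0 to 0.1 was 7.935% with classes from the lower confidence bound. Without microRNA, small nucleolar RNA and numbered models it was 6.503%, with 1.342 peaks per Mb and a ratio of 3.558. Without olfactory and vomeronasal receptors it was 8.631%. Without genes listed at FPKM 0 it was 12.98%, with 1.873 peaks per Mb and a ratio of 2.344. Spearman's rho, 0.21 in the report, was 0.183 with the locus only, 0.2456 with 50 kb flanks, 0.163 near the start, 0.1673 and 0.1268 with the higher-scoring peaks, 0.339 in windows without overlap, 0.1839 without the receptors and 0.09523 without genes at 0. Apart from the smaller peak lists, the cause of these moves was not tested. No paired analysis was possible because the RNA and the ChIP library had no replicate. The precision rests on 1 ChIP library, whose depth the peak list does not give, so a gene without a peak is a gene without a listed peak.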

Other observations

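Chromosome X stood apart from the autosomes. Of its 977 genes, 63 had a peak (6.45%, 4.99 to 8.18), against 17.8% (17.3 to 18.3) of 21960 autosomal genes. Its genes were also at FPKM 1 or more less often, 39.4% against 52.0%. Within the class 5 to 20, 7.80% (3.96 to 13.5) of 141 X genes and 24.3% (23.1 to 25.6) of autosomal genes had a peak, and over FPKM 20, 18.0% (11.0 to 26.9) of 100 and 26.5% (25.1 to 28.1), with intervals that overlap. Olfactory and vomeronasal receptor genes, none of which reached FPKM 1, had a peak in 10 of 1418 cases (0.705%).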
